A study of Mus musculus with 6 samples.

Results

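Heat shock chaperones and cochaperones are the 34 genes described here, of 31253 genes in the count tables. They were taken as a list of names, with no threshold on a measured value, and every gene of the list was found by its symbol. The list holds 8 inducible cytosolic chaperones, 4 constitutive cytosolic chaperones, 4 mitochondrial chaperones, 7 J-domain cochaperones, 6 other cochaperones, 3 subunits of the cytosolic chaperonin TRiC and 2 heat shock factors.

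The livers came from 6 mice, 3 per group, with 1 single-cell library of 3′ transcript tags per mouse. All 6 carried floxed Sting alleles (Stingfl/fl), ate chow until 8 weeks of age and then received a western diet combined with carbon tetrachloride (WD-CCl4) for 12 weeks, which produces steatohepatitis with inflammation and scarring. The knockout mice also carried Cdh5-Cre, a recombinase driven by the promoter of vascular endothelial cadherin, and the controls did not (Stingfl/fl Cdh5-Cre-). STING, encoded by Sting1, is the innate immune adaptor downstream of the DNA sensor cGAS.

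Chaperones of the HSP70 family hold unfolded protein and release it in cycles of ATP hydrolysis, which J-domain proteins start and nucleotide exchange factors end. HSP90 and its cochaperones mature kinases and receptors, HSP60 and HSP10 form the folding chamber of the mitochondrial matrix, and TRiC folds actin and tubulin. Under heat or other proteotoxic stress, the factor HSF1 forms trimers on heat shock elements, which are inverted repeats of the unit GAA, and switches on the inducible members. In dissociated tissue, inducible HSP70 genes and immediate early genes such as Fos and Egr1 are also known to be raised by the handling of the cells.

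The promoter windows hold these elements unevenly, and the stretches that carry them in the members the results turn on are shown here. Windows ran from 250 bases before to 50 bases after a gene start (RefSeq, GRCm38.p6) and were found for 27 members, 37 windows in all; Hsp90ab1, Hsp90aa1, Hsf1, Cct4, Hspa9, Hspa8 and Cryab had none in that table. Both strands were searched for 3 units, GAANNTTCNNGAA or TTCNNGAANNTTC, and for the shorter form with 2 units, GAANNTTC or TTCNNGAA, which lies within every longer match. The longer form was in 198 of 32851 windows (0.603%) and in 7 of the 37 member windows, those of Chordc1, Dnajb6, Hspd1, Hspe1 and Hsph1. The shorter form was in 15.1% of all windows and in 17 member windows, of 15 members. Capitals mark the matched element.
Hspd1, chr1:55088051-55088084, minus strand: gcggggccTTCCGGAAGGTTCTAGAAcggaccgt
Hspe1, chr1:55088051-55088084, plus strand: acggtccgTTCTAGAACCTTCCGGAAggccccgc
Chordc1, chr9:18292255-18292293, plus strand: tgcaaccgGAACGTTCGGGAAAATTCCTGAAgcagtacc
Dnajb6, chr5:29735844-29735872, plus strand: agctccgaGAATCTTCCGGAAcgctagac
Hsph1, chr5:149636280-149636308, minus strand: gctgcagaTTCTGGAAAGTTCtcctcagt
Hspa1a, chr17:34972233-34972280, minus strand: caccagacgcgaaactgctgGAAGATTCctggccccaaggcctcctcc
Hspa1b, chr17:34959315-34959362, minus strand: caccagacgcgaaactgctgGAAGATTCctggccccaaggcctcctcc
Hspb1, chr5:135887782-135887849, plus strand: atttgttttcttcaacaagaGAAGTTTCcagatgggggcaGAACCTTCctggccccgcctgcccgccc
Hspd1 and Hspe1, which encode HSP60 and HSP10, share 1 stretch, read on opposite strands. Hspa1a and Hspa1b, the neighbouring genes for inducible HSP70, carry the same stretch, and their windows were identical at 296 of 300 positions. The shorter form was in 5 of 6 inducible members with a window, 2 of 3 mitochondrial, 4 of 7 J-domain and 3 of 6 other cochaperones, 1 of 2 TRiC subunits and neither of the constitutive members Hspa4 and Hspa14. A match is a description of letters, not a binding site.

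Because Hspa1a and Hspa1b are near copies, their reads could be split or lost in counting. Of 50-base stretches of the Hspa1a transcripts, 58.8% also occurred in Hspa1b, and 62.3% the other way round, but none did within the last 400 bases, where 3′ tags mostly fall. The gene models lie at chr17:34969190-34972156 for Hspa1a and chr17:34956436-34959238 for Hspa1b (GENCODE, GRCm38, minus strand), and both protein-coding genes were counted apart and also summed.

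After filtering, 41744 cells remained of 44656 barcodes, and library totals ran from 55017937 to 73867890 unique molecular identifiers (UMIs). The labels name liver sinusoidal endothelial cells, but the counts hold many cell types, and 10 classes were compared, each with 20 or more cells from every mouse. Classes were named from marker genes ("-like"), and the cells were clustered with the members among all genes. The stellate/fibroblast-like class joined clusters 21 and 22 (750 and 549 cells before doublet removal). Cluster 21 was led by the smooth muscle genes Myh11, Tagln and Acta2, and cluster 22 by Gsn, Dpt and Lum. The name thus covers cells with smooth muscle genes as well as fibroblast-like cells. Control 2 stood apart: it had the fewest median UMIs per cell in all 10 classes and the highest summed inducible level in 8 of them, so results are given without it where it matters. Pairs of libraries shared 5 to 25 cell barcodes, at most 0.328% of the smaller library. Sting1 in endothelial-like cells was at 27.9, 26.8 and 27.5 CPM (counts scaled to a common library total) in controls 1 to 3 and at 21.6, 14.5 and 22.1 CPM in knockouts 1 to 3 (log2 fold change -0.48, edgeR adjusted p = 0.743). In B-like cells the controls had 7.40, 7.1 and 9.73 CPM of Sting1 and the knockouts 3.99, 4.94 and 5.10, and in NK/ILC1-like cells 16.8, 15.2 and 18.4 against 10.6, 8.95 and 9.71. In cDC1-like cells Sting1 stood higher in the knockouts (23.5, 19.2 and 18.6 CPM against 13.1, 11.6 and 13.3). Where the floxed exons lie relative to the counted transcript ends is not given in the sources used here, so Sting1 does not check the deletion.

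Several inducible cytosolic chaperones spanned wide ranges of level between cell classes, 21.05 times from the lowest to the highest class for Hspa1a and 67.8 times for Hspb1, while Hsp90aa1 spanned 8.08 times and Hspa4l 6.12 times. Levels are mean CPM ± SD over the 6 libraries. Hspa1a reached 4851 ± 1286 in endothelial-like cells and 3673 ± 661 in B-like cells, and was lowest in neutrophil-like cells at 230 ± 140. Hspa1b had its highest mean, 4780 ± 2044, in endothelial-like cells as well, with NK/ILC1-like cells next at 3436 ± 1233. For both genes the libraries of the leading class overlapped those of the next. Hspb1, a small heat shock protein that guards actin filaments, was at 3496 ± 1168 in mesothelial-like and 3426 ± 730 in stellate/fibroblast-like cells but at 51.5 ± 64.1 in neutrophil-like cells. Cryab, the small heat shock protein alpha-B crystallin, reached 572 ± 168 in mesothelial-like cells and 304 ± 68.2 in stellate/fibroblast-like cells. Hsp90aa1, the inducible HSP90, had its highest level in B-like cells (4013 ± 384). The HSP110 exchange factor Hsph1 was alike in B-like (1743 ± 298) and NK/ILC1-like cells (1733 ± 234).

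For the constitutive chaperones the ratio of the highest to the lowest class was 2.75 (Hspa4) to 8.92 (Hspa8), a range that holds those of Hsp90aa1 and Hspa4l. Hspa8, the housekeeping HSP70, was highest in cDC1-like cells, type 1 conventional dendritic cells, at 3539 ± 283. Hsp90ab1, the constitutive HSP90, was highest in T-like cells at 3220 ± 348. Both were lowest in neutrophil-like cells, at 397 ± 139 and 408 ± 143. Among the mitochondrial members, Hspd1 was at 574 ± 161 in B-like cells, and every B-like library lay above every NK/ILC1-like library, the next class at 335 ± 82.2. Its partner Hspe1 was also highest in B-like cells (983 ± 260), there overlapping with cDC1-like cells (777 ± 109). Bag3, a nucleotide exchange factor of HSP70, was highest in endothelial-like (382 ± 82.6) and stellate/fibroblast-like cells (367 ± 69.7). Fkbp4, a prolyl isomerase bound to HSP90, was at 126 ± 15.8 in cholangiocyte-like cells, clear of mesothelial-like cells at 85.4 ± 5.45. Of the other highest levels, those of the J-domain protein Dnaja2 (223 ± 10.9) and the TRiC subunit Tcp1 (137 ± 8.92), both in B-like cells, were clear of the next class.

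**Figure D1:**
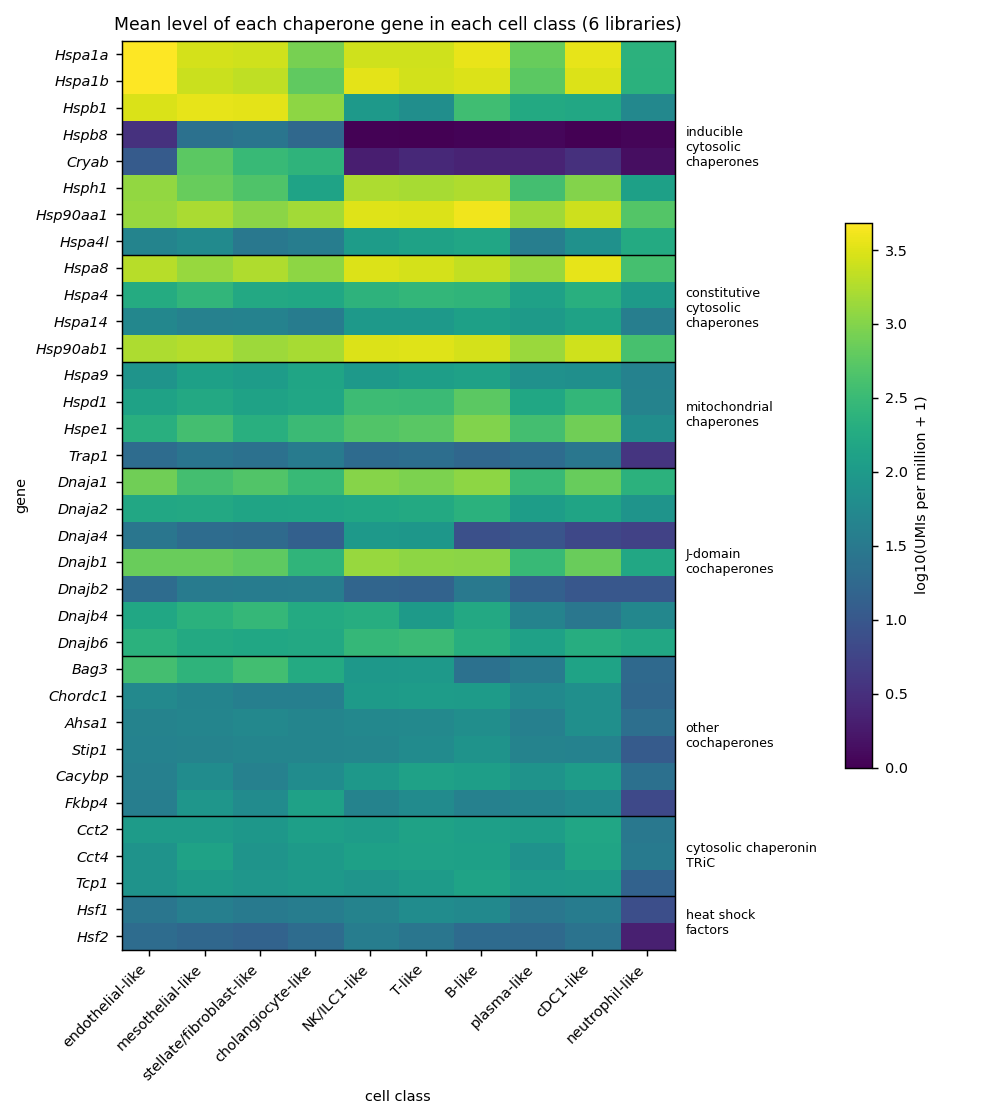
Mean level of each of the 34 genes (rows, grouped by role) in the 10 tested cell classes (columns), as log10 of CPM plus 1, averaged over 6 libraries. The brightest rows are Hspa1a, Hspa1b, Hspb1, Hsp90aa1, Hspa8 and Hsp90ab1, and the neutrophil-like column is the darkest for most genes, while Hspb8 and Cryab are seen mainly in mesothelial-like, stellate/fibroblast-like and cholangiocyte-like cells.

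In endothelial-like cells, the class that Cdh5-Cre targets, most chaperone genes had lower levels in the knockout mice. The deletion was not checked in this or any other class. No member passed edgeR's adjusted threshold of 0.05, which called 0% of the 12231 genes tested in endothelial-like cells. Of the 33 members above the filter on low counts (Hspb8 was below it), 28 had negative log2 fold changes with a median of -0.27, beside a median of 0.01 and 48.6% negative over all genes. At an unadjusted p under 0.05, 11 members were lower and none higher, while 3.92% of all genes were lower at that level. All 3 knockouts lay below all 3 controls for 10 members, against 6.16% of all genes. Without the filter, 28 of all 34 members were lower. Without control 2, 6 members were lower at an unadjusted p under 0.05, beside 2.51% of all genes, and the median was -0.22.

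Hspa1b stood first among them. Its CPM were 4547, 7897 and 6850 in controls 1 to 3 and 2693, 3555 and 3274 in knockouts 1 to 3, so the groups did not overlap. The log2 fold change was -1.02 ± 0.22 (SE), with an edgeR adjusted p of 0.743. DESeq2 called 0.131% of the genes, and Hspa1b was the sole member among them (-1.03, adjusted p = 0.00282). Hspa1a had 4649, 6261 and 6586 CPM in the controls and 3298, 3475 and 4955 in the knockouts. Knockout 3 thus lay above control 1 for Hspa1a, and its log2 fold change was -0.58 ± 0.21. Summed, the pair gave -0.79 ± 0.21 with no overlap (edgeR adjusted p = 0.744).

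Among the small heat shock proteins, Hspb1 and Cryab separated the groups, and Hspb8, below the filter, overlapped at 1.64 to 3.61 CPM. Hspb1 was at 3532, 4020 and 3871 CPM in the controls and at 1748, 1827 and 3026 in the knockouts. Its log2 fold change was -0.79 ± 0.22, and knockout 3 was the nearest to the controls. Cryab, at low levels in these cells, had 10.7, 15.1 and 14.2 CPM in controls and 7.90, 6.14 and 7.84 in knockouts (-0.87 ± 0.22). Hsp90aa1 had 1409, 1571 and 1684 CPM in controls and 975, 985 and 1261 in knockouts, again without overlap (-0.53 ± 0.15). The other 2 inducible members above the filter, Hspa4l and Hsph1, had log2 fold changes of -0.63 and -0.31 with overlapping groups. The 7 inducible members tested were all on the lower side, with a median of -0.63.

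The constitutive members had smaller differences, with a median of -0.12. Hspa8 had 1898, 2345 and 2341 CPM in controls and 1561, 1478 and 1976 in knockouts, where knockout 3 overlapped control 1 (-0.39 ± 0.16). Hsp90ab1 had 1604, 1898 and 1995 CPM against 1556, 1536 and 1627 (-0.22 ± 0.13), also overlapping. Hspa4, an HSP110 exchange factor, and Hspa14, which works at the ribosome, were at 0.05 and -0.01.

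Of the 4 mitochondrial members, the HSP60 and HSP10 genes lay apart from the other two. Hspe1 had 199, 294 and 266 CPM in controls and 156, 165 and 173 in knockouts, with no overlap (-0.62 ± 0.15). Hspd1, whose promoter window holds the same stretch, had 111, 189 and 171 CPM against 105, 99.5 and 116, and control 1 lay below knockout 3 (-0.56 ± 0.19). Hspa9, the mitochondrial HSP70, and Trap1, the mitochondrial HSP90, had log2 fold changes of -0.19 and 0.16.

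Among the cochaperones of endothelial-like cells, Dnajb4 had 169, 178 and 170 CPM in controls and 139, 140 and 149 in knockouts (-0.27 ± 0.10). Dnajb1, the J-domain partner of inducible HSP70, had 617, 901 and 1001 CPM against 459, 524 and 757 with overlap (-0.53 ± 0.24). Stip1, the adaptor that links HSP70 to HSP90, was at -0.37 ± 0.16 with no overlap, and Bag3 at -0.39 ± 0.18 with overlap. Of the 7 J-domain members 5 were lower, and of the 6 other cochaperones all were lower, with medians of -0.17 and -0.30. The TRiC subunits Cct2, Cct4 and Tcp1 lay between -0.09 and 0.11. Hsf2, a heat shock factor known from development, had 24.2, 24.7 and 20.1 CPM in controls and 13.02, 16.5 and 16.0 in knockouts (-0.60 ± 0.17), while Hsf1 was at -0.06 ± 0.16. The edgeR adjusted p of the 33 members tested lay between 0.743 and 0.992.

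**Figure D2:**
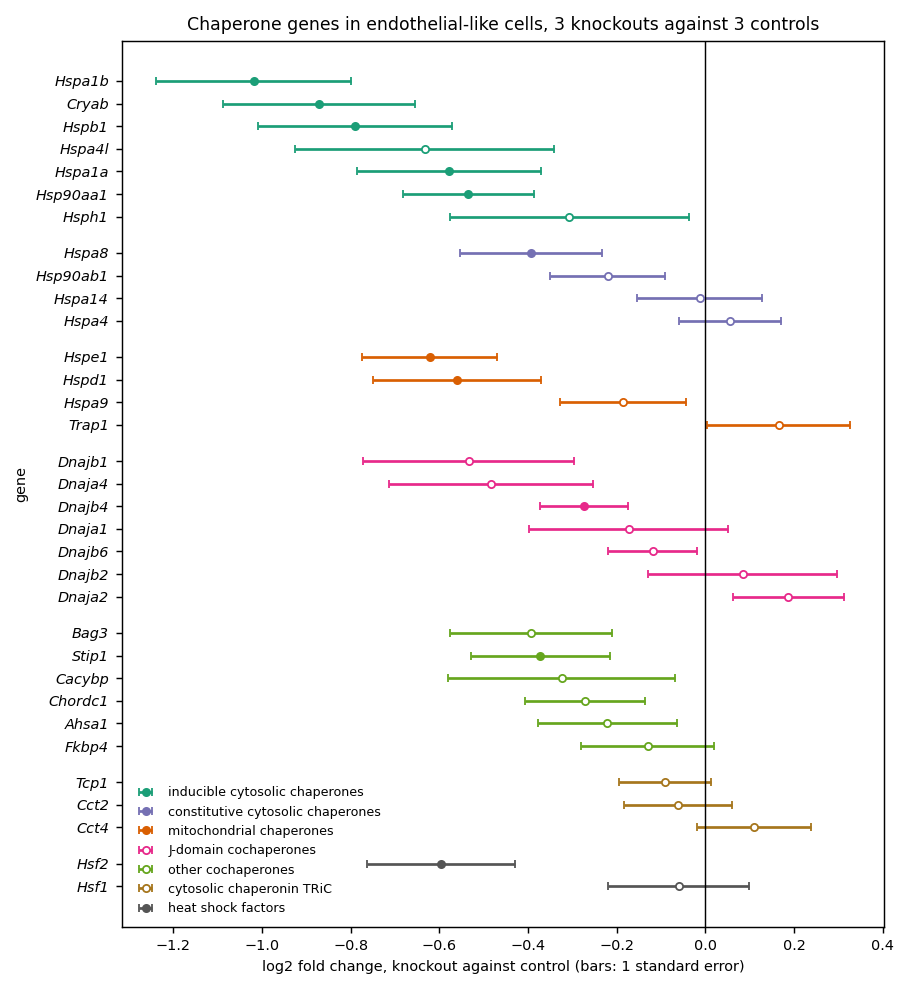
Log2 fold change (knockout against control, 3 mice each, edgeR) of the 33 members tested in endothelial-like cells, grouped by role, with bars of 1 standard error and filled symbols for an unadjusted p under 0.05. Hspa1b is farthest to the left at -1.02, the inducible members all lie left of 0, and the TRiC subunits lie between -0.09 and 0.11.

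Since the class joined 4 clusters, the members were also read within each. Cluster 9 (1205 of 2641 cells, led by Rspo3 and Selp) had an inducible sum of 15680, 22207 and 18299 CPM in controls and 9433, 8569 and 12952 in knockouts. In cluster 26 (338 cells, led by the lymphatic genes Ccl21a and Mmrn1) the sums were 14482, 22455 and 22177 against 12549, 12079 and 11027. The groups were thus apart in both of these clusters. In cluster 17 (883 cells, led by Mecom and Ldb2) the sums were 12617, 19929 and 25293 against 11945, 12725 and 15719, and overlapped because control 1, with 32 cells, was low. Cluster 32 was led by the sinusoidal genes Stab2 and Clec4g and held 215 cells, 5 to 87 per library. Its inducible sum was lower in both groups, 8187 ± 2266 in controls and 6091 ± 1360 in knockouts (SD, n = 3), and overlapped. Control 3 and knockout 1 gave 87 and 81 of its cells, and over the whole class Stab2 was at 95.9, 59.2 and 257 CPM in controls and 323, 134 and 102 in knockouts. Cells with the sinusoidal markers were thus a small part of the class, and their number varied between libraries.

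Other genes around the heat shock system were read from lists beside the members in endothelial-like cells. Of 20 other cytosolic cochaperones, 10 were lower and 10 higher with a median of -0.01; Bag4 was at 0.46 and St13 at -0.29. Of 14 other J-domain proteins 6 were lower (median 0.01), of 5 other TRiC subunits 2 (median 0.01), and of 7 other mitochondrial quality control genes 5 (median -0.04). Of 14 chaperones of the endoplasmic reticulum 12 were lower, with a median of -0.15 and 3 at an unadjusted p under 0.05. Hspa5, the HSP70 of that compartment, was at -0.53 with 1499, 1686 and 1504 CPM in controls and 853, 988 and 1395 in knockouts. No gene of these lists was called by edgeR.

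The immediate early genes were read in the same way. In endothelial-like cells 17 of 18 were lower, with a median of -0.32, and their sum was 50730, 52445 and 52474 CPM in controls against 36589, 43537 and 50414 in knockouts. Egr1 was at -0.52 and Atf3 at -0.60 there. In NK/ILC1-like, T-like and B-like cells the summed immediate early level of the knockouts was 0.954, 1.00 and 1.05 times that of the controls, and the groups overlapped. In stellate/fibroblast-like cells the ratio was 0.872, with every knockout below every control, and in mesothelial-like cells it was 0.714 with overlap. In cholangiocyte-like cells it was 1.08, with every knockout above every control. The part of tissue handling in these results was not tested.

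Depth, RNA quality and markers of other cells were set beside the endothelial-like values. Median depth was 9769, 5828 and 10027 UMIs per cell in controls and 8575, 10122 and 10248 in knockouts. The median mitochondrial share of UMIs was 1.69%, 2.02% and 2.18% in controls and 2.38%, 2.43% and 2.11% in knockouts. The summed endothelial markers were higher in every knockout than in every control (8620 ± 892 against 7136 ± 491 CPM), and those of T cells were at 89.2 ± 19.6 against 135 ± 33.3. The markers of monocytes and macrophages were at 30.4 ± 4.77 against 30.2 ± 17.6, and those of red cells between 0 and 0.205. Those of plasmacytoid dendritic cells, at 1399 ± 60.0 against 1258 ± 49.2, were also higher in every knockout. The part of these measures in the chaperone values was not tested.

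Summed over the 8 genes, the inducible level separated the groups in 6 of 10 classes: endothelial-like, NK/ILC1-like, T-like, B-like, cDC1-like and stellate/fibroblast-like cells. The classes share the same 6 mice. Every knockout lay below every control for 754 of 12231 single genes in endothelial-like, 630 of 9740 in NK/ILC1-like and 670 of 12720 in T-like cells. The counts were 687 of 11259 in B-like, 564 of 9221 in cDC1-like and 434 of 11075 in stellate/fibroblast-like cells. Sums of other genes were not taken, so the sums have no background of their own. In endothelial-like cells the sums were 14743, 21403 and 20117 CPM in controls and 10015, 11146 and 13852 in knockouts. The knockout mean was 0.622 times the control mean there, 0.702 times in NK/ILC1-like, 0.758 times in T-like and 0.773 times in B-like cells. Knockout 1 was the lowest library in 7 of the 10 classes. In mesothelial-like cells the ratio was 0.640, but control 1 (7033) lay below all 3 knockouts while control 2 reached 20621. In cholangiocyte-like cells the ratio was 0.984 and the groups overlapped.

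The mitochondrial sum separated the groups in the same 6 classes, again with no background for sums. Its ratios there ran from 0.682 in B-like to 0.792 in stellate/fibroblast-like cells. B-like cells had 1799, 2413 and 1852 CPM of it in controls and 1422, 1276 and 1436 in knockouts. The constitutive sum had ratios between 0.724 in neutrophil-like and 1.08 in cholangiocyte-like cells. On plain totals every knockout lay below every control in NK/ILC1-like, T-like, cDC1-like and plasma-like cells. This sum was not repeated with TMM-normalised counts. The TMM factors of knockout 1 and control 2 were 0.863 and 1.15 in plasma-like cells and 0.977 and 1.03 in T-like cells. Separation in those classes was thus not shown to hold after TMM. Of the 4 constitutive members, 0 had groups apart in plasma-like cells and 1 in T-like cells. The TRiC sum had ratios from 0.941 to 1.15 outside neutrophil-like cells, and in mesothelial-like cells every knockout lay above every control (359 ± 16.8 against 314 ± 17.3).

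**Figure D3:**
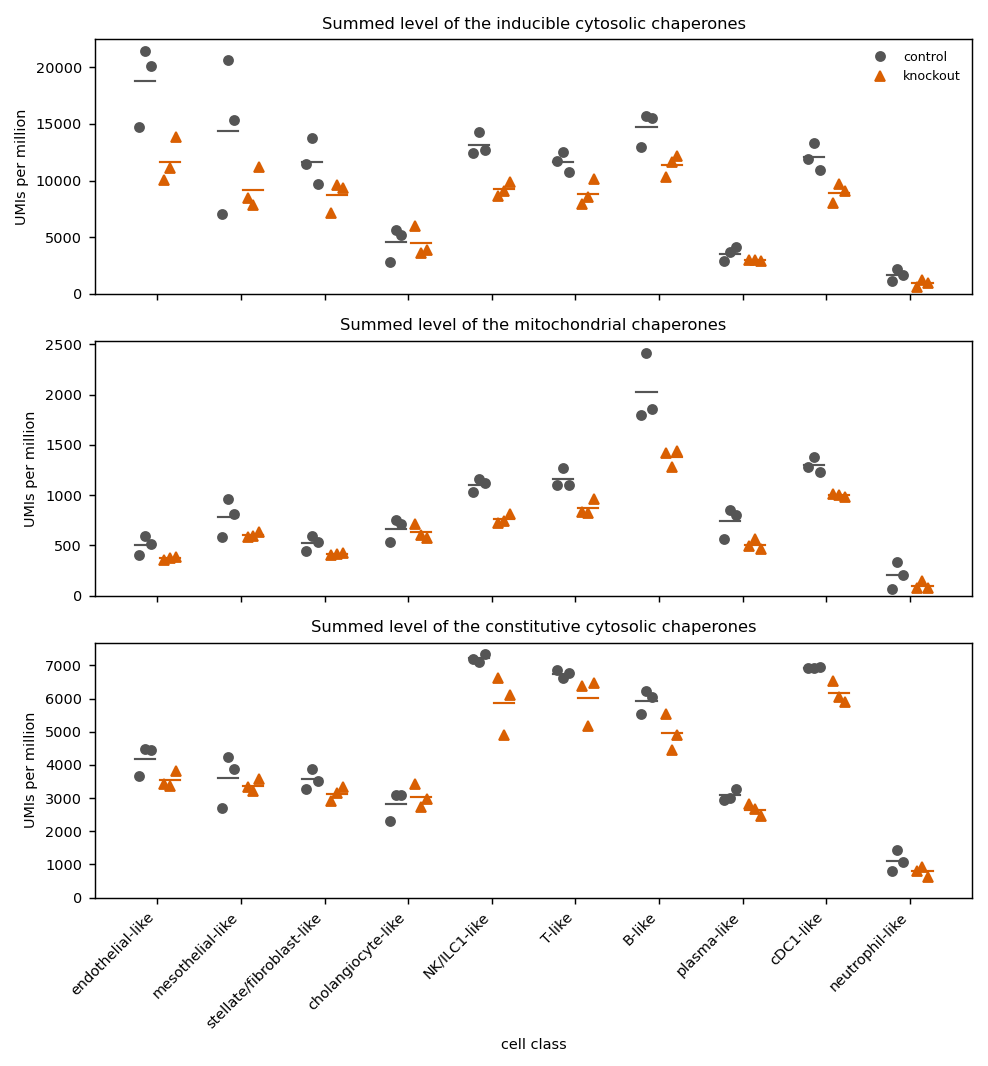
Summed level of the inducible, mitochondrial and constitutive groups in CPM (linear axes from 0) for each library, by cell class, with grey circles for 3 controls, orange triangles for 3 knockouts and lines at the group means. In endothelial-like cells the inducible sums of the controls run from 14743 to 21403 and those of the knockouts from 10015 to 13852, whereas in cholangiocyte-like cells the groups overlap.

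The lymphoid classes had the same direction. In NK/ILC1-like cells (natural killer cells and type 1 innate lymphoid cells) 28 of 32 tested members were lower, with a median of -0.30; Hspb8 and Cryab were below the filter. No member was among the 2 genes edgeR called (0.0205%), 16 were lower at an unadjusted p under 0.05 beside 3.96% of all genes, and 13 had groups apart beside 6.47%. The 16 became 10 without control 2, beside 3.27% of all genes, and 8 without knockout 2, beside 4.64%. The median mitochondrial share of UMIs was higher in every knockout of this class (1.83%, 2.20% and 1.95%) than in every control (1.64%, 1.62% and 1.51%), and the summed endothelial markers were lower in every knockout (202 ± 17.8 against 254 ± 10.2 CPM). Their part in these values was not tested. Hspd1 had 379, 417 and 432 CPM in controls and 233, 261 and 292 in knockouts. Hspe1 had 578, 599 and 596 against 407, 327 and 406, and Hspb1 117, 118 and 128 against 83.1, 60.4 and 70.4. None of the 3 overlapped, and their log2 fold changes were -0.64 ± 0.12, -0.64 ± 0.12 and -0.76 ± 0.14 with an edgeR adjusted p of 0.151 each. DESeq2 called 0.113% of the genes, and 4 members were among them: these 3 and Hspa1b (-0.87, adjusted p = 1.67e-04).

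In T-like cells 29 of 33 tested members were lower (median -0.21; Hspb8 below the filter). EdgeR called 0% of the genes, and 9 members were lower at an unadjusted p under 0.05 beside 2.52% of all genes. Without control 2 the count was 5, beside 2.09% of all genes. Without knockout 2 the median was -0.12. The median mitochondrial share of UMIs was again higher in every knockout (1.88%, 2.38% and 2.03%) than in every control (1.56%, 1.80% and 1.68%), as were the summed B cell markers (32.9 ± 7.29 against 19.8 ± 2.56 CPM). Their part was not tested. Hspa1b had 3037, 3900 and 2934 CPM in controls and 1702, 2365 and 2075 in knockouts, without overlap (-0.68 ± 0.17, edgeR adjusted p = 0.884). It was the single member among the 0.102% of genes that DESeq2 called (adjusted p = 0.0214). Hspd1 and Hspe1 were at -0.48 ± 0.12 and -0.50 ± 0.13, also with groups apart.

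In B-like cells 29 of 33 tested members were lower (median -0.19; Hspb8 below the filter), edgeR called 0% of the genes, and 12 members were lower at an unadjusted p under 0.05 beside 4.30% of all genes. Without control 2 the 12 became 5, beside 3.61% of all genes. Markers of NK cells (29.8 ± 2.75 against 35.4 ± 2.12 CPM), of monocytes and macrophages (16.5 ± 1.94 against 22.5 ± 0.696) and of basophils and mast cells (1.19 ± 0.269 against 2.44 ± 0.319) were lower in every knockout of this class. Those of B cells (6224 ± 265 against 5387 ± 408) and platelets (28.0 ± 0.4997 against 25.4 ± 0.838) were higher, and their part was not tested. Hspe1 had 1134, 1347 and 1105 CPM in controls and 854, 648 and 814 in knockouts (-0.63 ± 0.14, edgeR adjusted p = 0.364). Hspd1 had 575, 849 and 630 against 468, 453 and 463, and Hspb1 449, 421 and 574 against 295, 152 and 304. The groups were apart for all 3. DESeq2 called 0.115% of the genes with Hspe1 among them (adjusted p = 0.00439). Same-numbered mice deviated together in this class, and with the replicate number as a block edgeR called 0.426% of the genes and 4 members: Hspa1b (adjusted p = 0.0243), and Hspd1, Hspe1 and Hspb1 (adjusted p = 0.0421 each).

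Among myeloid cells, cDC1-like cells had 24 of 31 tested members lower (median -0.22), with 3 members below the filter. EdgeR called 0% of the genes, and 10 members were lower at an unadjusted p under 0.05 beside 4.29%. That count was 4 without control 1 or knockout 1 (beside 2.99% and 3.16% of all genes), 5 without control 3 (5.84%) and 6 without knockout 2 (4.34%). Markers of B cells (146 ± 52.1 against 49.9 ± 19.2 CPM), plasma cells (416 ± 68.9 against 278 ± 34.2), monocytes and macrophages (379 ± 39.4 against 312 ± 24.9) and plasmacytoid dendritic cells (1883 ± 23.5 against 1613 ± 61.8) were higher in every knockout than in every control of this class. Neutrophil markers stood at 451 CPM in knockout 3 and at 16.4 to 48.5 in the other libraries. The part of these markers in the chaperone values was not tested. Hspd1 had 333, 363 and 308 CPM in controls and 204, 212 and 231 in knockouts (-0.63 ± 0.14, edgeR adjusted p = 0.244). Hspa1b had 3913, 4625 and 3307 against 1801, 3091 and 2051 (-0.77 ± 0.21), and neither gene overlapped between groups. DESeq2 called 0.0976% of the genes, with Hspd1 the sole member (adjusted p = 0.0427).

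Neutrophil-like cells held few chaperone UMIs, and 23 members passed the filter, 20 of them lower (median -0.35). EdgeR called 0% of the genes and DESeq2 0.0638%, no member by either, and 8 members were lower at an unadjusted p under 0.05 beside 4.17%. That count was 3 without control 2, knockout 1 or knockout 3 (beside 3.89%, 3.82% and 4.04% of all genes) and 4 without control 3 (3.65%). It was 1 with the members left out of the clustering (2.50%), and 0 with doublets kept (2.53%) or with finer clusters (2.49%). The median was -0.21 without control 2, -0.22 with doublets kept, -0.11 with finer clusters and -0.12 with the members left out of the clustering, and in each of the last pair 15 of 26 tested members were lower. Hspa1a had 196, 408 and 373 CPM in controls and 78.7, 182 and 128 in knockouts, without overlap (-1.35 ± 0.33, edgeR adjusted p = 0.329). Hspb1 was at 9.18, 157 and 92.1 against 10.3, 12.6 and 19.9 CPM, where control 1 lay below the knockouts. Only 62 to 289 neutrophil-like cells per library stood behind these values. Markers of endothelial cells (35.3 ± 7.47 against 96.9 ± 45.2 CPM) and of B cells (118 ± 28.4 against 218 ± 64.8) were lower in every knockout of this class, and control 2 held 8065 CPM of red cell markers against 0 in the other libraries. Their part in the chaperone values was not tested. In plasma-like cells 20 of 32 tested members were lower (median -0.06). EdgeR and DESeq2 each called 0% of the genes there, and 4 members were lower at an unadjusted p under 0.05 beside 2.94%. That count was 2 without control 2 (beside 2.03% of all genes) and 1 without control 3 or knockout 3 (3.66% and 2.00%). Markers of monocytes and macrophages (480 ± 110 against 305 ± 70.6 CPM) and of mesothelium (37.1 ± 21.1 against 15.2 ± 6.73) were higher in every knockout of this class, those of red cells (0.0898 ± 0.156 against 1.05 ± 0.663) were lower, and their part was not tested. Dnaja4, a J-domain partner of HSP70, was the first with 9.52, 9.75 and 12.7 against 3.75, 7.01 and 5.70 CPM (-1.04 ± 0.35), followed by Hspe1 and Hspd1 at -0.52 ± 0.19 and -0.38 ± 0.15.

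Stellate/fibroblast-like cells had 28 of 34 members lower with a median of -0.28, which was -0.15 without knockout 1. EdgeR and DESeq2 each called 0% of the genes, and 2 members were lower at an unadjusted p under 0.05 beside 1.11%. That count was 1 without knockout 3 (beside 0.945% of all genes) and 0 without control 2 or knockout 1 (0.620% and 0.932%). Dnajb1 had 626, 751 and 828 CPM in controls and 382, 404 and 604 in knockouts (-0.66 ± 0.26). Hspa1b had 2479, 3479 and 2190 against 1071, 2119 and 1498 (-0.80 ± 0.32). The groups were apart for both. Knockout 1 held 57 of these cells. The clusters of this class, led by smooth muscle genes and by Gsn, Dpt and Lum, were not read apart.

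Mesothelial-like cells had 25 of 34 members lower (median -0.23, -0.10 without control 2 and -0.43 without control 1). EdgeR called 0% of the genes and DESeq2 2.03%, no member by either. At an unadjusted p under 0.05, 5 members were lower and 1 higher, beside 7.95% and 8.96% of all genes. The 5 became 18 without control 1, beside 9.34% of all genes. They became 2 without any 1 of control 2, control 3, knockout 1 and knockout 2, beside 5.53%, 7.15%, 6.58% and 5.19%. The median mitochondrial share of UMIs was higher in every knockout (1.88%, 2.26% and 1.91%) than in every control (1.63%, 1.62% and 1.75%), and the summed T cell markers were lower in every knockout (57.9 ± 3.44 against 86.8 ± 37.8 CPM). Their part was not tested. Hsf2 had 17.5, 21.7 and 18.7 CPM in controls and 13.4, 14.98 and 11.5 in knockouts (-0.55 ± 0.15, edgeR adjusted p = 0.147). Chordc1, an HSP90 cochaperone with a zinc-binding domain, was at -0.37 ± 0.12. The TRiC subunit Cct4 was on the higher side, with 116, 118 and 125 against 150, 137 and 146 CPM (0.27 ± 0.09, edgeR adjusted p = 0.185). The inducible values rested on control 1: Hspa1a and Hspa1b summed to 2737, 11133 and 7466 CPM in controls and 3262, 3092 and 4401 in knockouts. Without control 1, edgeR called 0.632% of the genes, and Hspa1b (-1.70), Hspa4l, Hspe1 and Hspd1 were among them with adjusted p of 0.0175 to 0.0466.

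In cholangiocyte-like cells 19 of 34 members were lower with a median of -0.02, beside 50.9% of all genes lower. EdgeR called 0% of the genes and DESeq2 0.197%, no member by either, and 3 members were lower at an unadjusted p under 0.05 beside 4.10%. That count was 1 without control 2 or knockout 1, beside 3.02% and 3.06% of all genes. Platelet markers were lower in every knockout of this class (7.74 ± 1.29 against 10.4 ± 1.27 CPM), and their part was not tested. The 3 members were Chordc1 (37.9, 45.1 and 46.7 against 36.1, 31.0 and 33.3 CPM, -0.39 ± 0.12), Hsf2 (-0.43 ± 0.15) and Dnajb4 (-0.28 ± 0.11). The groups were apart for all 3, and the pair of HSP70 genes overlapped.

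Across the 10 classes, 9 members had negative log2 fold changes in every class that tested them. Hspa1b was lower in 10 of 10, with a median of -0.78 and a range from -1.52 to -0.52, and Hspd1 and Hspe1 in 10 of 10 with medians of -0.53 and -0.52. Hspd1 and Hspa1b each had an unadjusted p under 0.05 in 8 classes and Hspe1 in 7. Within single classes, 48.3% to 51.3% of all genes were negative, and 1.11% to 7.95% were lower at that p. The share of all genes with such counts over the classes together was not taken, so these counts have no background beside them. Other members of these families had small or positive values: Hspa4 was lower in 2 of 10 classes (median 0.05), Trap1 in 1 of 9 (median 0.16) and Cct4 in 2 of 10 (median 0.09). Cryab was lower in 2 of the 6 classes that tested it, from -0.87 in endothelial-like to 0.77 in B-like cells. The classes share the same 6 mice, so they are not independent repeats.

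**Figure D4:**
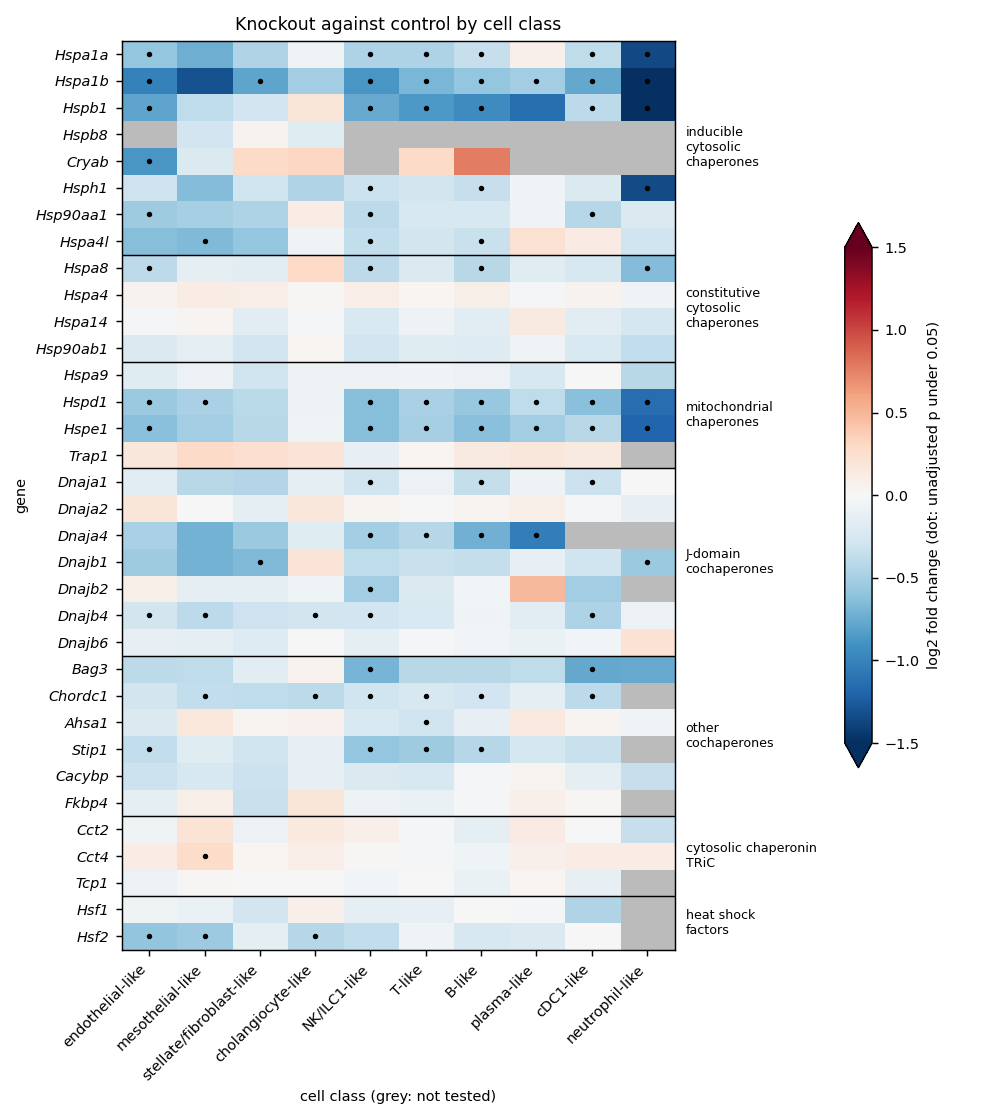
Log2 fold change (knockout against control, edgeR) of each member (rows, by role) in each of 10 cell classes (columns), blue for lower and red for higher in knockouts, with dots for an unadjusted p under 0.05 and grey for genes below the filter. Hspa1b, Hspd1 and Hspe1 are blue in all 10 columns, whereas Hspa4, Trap1 and the TRiC subunits are pale, and the cholangiocyte-like column is near white.

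Whether the genotype difference was larger in endothelial-like cells than elsewhere was tested for 2 classes. Against T-like cells edgeR called 0.0146% of the genes and no member; at an unadjusted p under 0.05 (5.29% of genes) stood Hsf2 (-0.52 ± 0.18) and Cryab (-1.17 ± 0.45), with Hspa1b at -0.31 ± 0.18. Against mesothelial-like cells it called 0% of the genes, and Cryab (-0.67 ± 0.23) and Ahsa1 (-0.37 ± 0.14), which stimulates the ATPase of HSP90, stood below an unadjusted p of 0.05 (5.95% of genes). So no member's difference was shown to be larger in endothelial-like cells.

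Because libraries differed in depth, inducible HSP70 was also read per cell after thinning every cell to 2000 UMIs. In endothelial-like cells 96.3%, 97.4% and 94.3% of control cells and 90.7%, 90.0% and 95.4% of knockout cells had a UMI of Hspa1a or Hspa1b, which overlapped (exact permutation p = 0.2, two-sided). Per cell with such a UMI there were 25.0 ± 5.24 of them in controls and 15.3 ± 2.09 in knockouts (SD, n = 3, exact permutation p = 0.1, the smallest that 3 against 3 can give). The number per such cell was also lower in NK/ILC1-like cells (15.9 ± 2.50 against 11.3 ± 1.06), T-like cells (16.4 ± 1.22 against 11.6 ± 1.31), B-like cells (19.2 ± 1.47 against 14.5 ± 1.39) and cDC1-like cells (16.0 ± 2.18 against 11.7 ± 1.72), each with an exact permutation p of 0.1 at n = 3. The share of cells was apart too in NK/ILC1-like (93.0% against 87.2%) and cDC1-like cells (98.0% against 94.6%, exact permutation p = 0.1 each). At 1000 UMIs both overlapped (exact permutation p = 0.2 and 0.4). In endothelial-like cells the share was apart at 1000 UMIs and for at least 3 UMIs (exact permutation p = 0.1 each). In T-like and B-like cells it overlapped at 2000 UMIs (exact permutation p = 0.2 and 0.5). T-like cells had shares apart at 1000 UMIs and for at least 3 UMIs, as endothelial-like cells did (exact permutation p = 0.1 each). B-like cells overlapped in both (exact permutation p = 0.3 each). For at least 3 UMIs the share was also apart in cDC1-like and neutrophil-like cells (exact permutation p = 0.1 each). It overlapped in NK/ILC1-like cells (exact permutation p = 0.2). Neutrophil-like cells, the class with the lowest share (median depth 2680 to 6185 UMIs before thinning, beside 5828 to 10248 in endothelial-like cells), had a UMI in 27.7% ± 12.0 of control and 16.3% ± 10.0 of knockout cells, with 3.14 ± 1.15 and 2.73 ± 1.57 of them per such cell. No class that should lack these genes was at hand and free RNA was not measured, so a cell with a UMI is not thereby shown to express them. Before thinning, 98.0% of control and 96.2% of knockout endothelial-like cells had a UMI. From the controls 131 shallower endothelial-like cells were left out, and from the knockouts 61.

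Several other inducible members varied with Hspa1a from cell to cell. Pearson correlations with Hspa1a were taken over the cells of each library, on logged counts scaled to each cell's total, without thinning. Depth was thus not matched between cells, and its part was not tested. The values are medians of 6 libraries. They describe cells that share a library and carry no test. In endothelial-like cells they were 0.72 for Hspa1b, 0.48 for Hspb1, 0.47 for both Dnajb1 and Hspa8, 0.42 for Hsph1 and 0.40 for Hsp90aa1. The inducible members Hspb8, Cryab and Hspa4l, with UMIs in 1.91%, 7.32% and 22.0% of these cells, stood at 0.056, -0.0049 and -0.03. Hspd1 and Hspe1 stood at 0.21 and 0.19. The TRiC subunits, Hspa9, Hspa4, Trap1 and both heat shock factors lay between -0.03 and 0.08. In T-like and B-like cells Hspa1b was again first at 0.65 and 0.74, but the order below it differed. Hspb1 was at 0.05 and 0.12 and Hspa8 at 0.28 and 0.31, below Hsp90ab1 at 0.34 and 0.36. Hspb1 had UMIs in 88.7% of endothelial-like cells but in 11.2% of T-like and 22.9% of B-like cells. For Bag3 the share was 78.4% in endothelial-like and 7.41% in B-like cells. For Hspa8 it was 97.1%, 97.6% and 96.4% in endothelial-like, T-like and B-like cells. The part of detection in these differences between classes was not tested. Dnaja4 was at 0.20 in T-like cells against 0.04 in endothelial-like cells, Bag3 at 0.09 in B-like against 0.27, and Hspa4l at 0.16 in B-like cells.

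**Figure D5:**
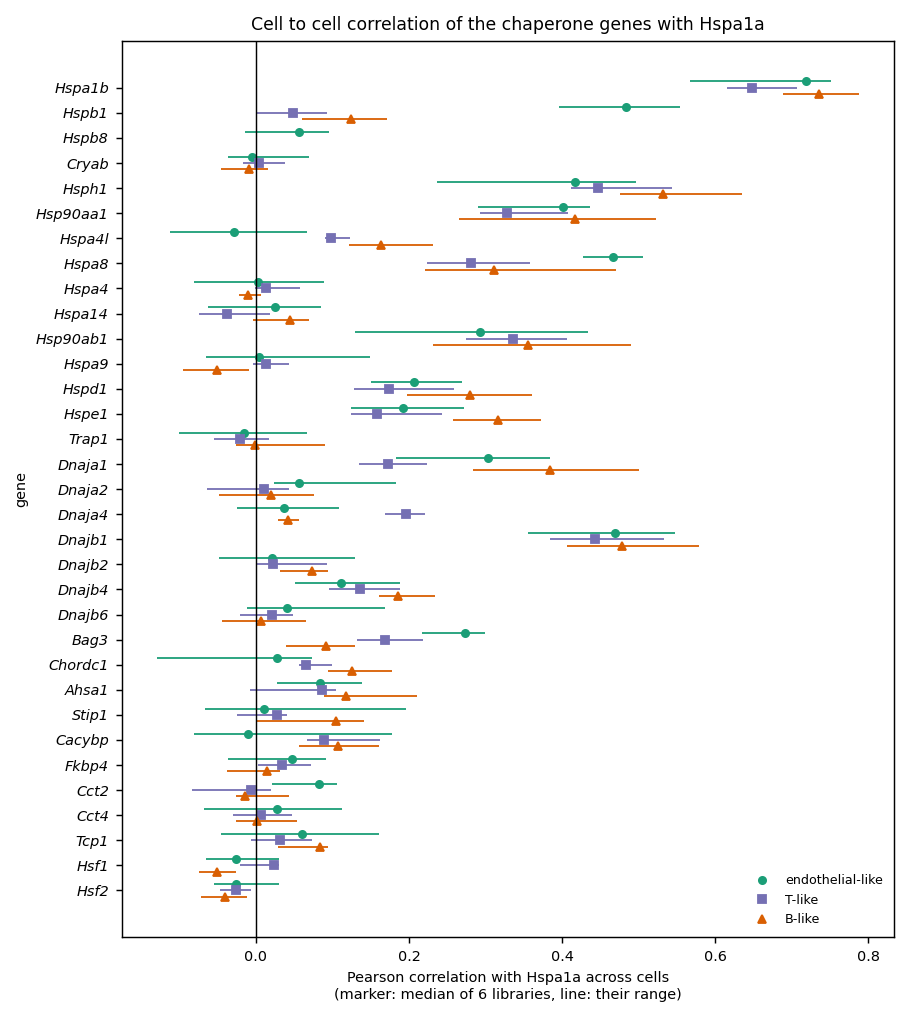
Pearson correlation of each member with Hspa1a across cells in endothelial-like, T-like and B-like cells, as the median (marker) and range (line) of 6 libraries. Counts were scaled to each cell's total and not thinned. Hspa1b lies farthest to the right in all 3 classes (0.72, 0.65 and 0.74), and Hspb1 is at 0.48 in endothelial-like cells but at 0.05 and 0.12 in the others. Hspb1 had UMIs in 88.7% of endothelial-like, 11.2% of T-like and 22.9% of B-like cells.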

How the data were processed

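Deposited counts of UMIs per gene and cell barcode, unnormalised as their whole numbers show, were used for 6 libraries. Per the labels and the submitters' processing notes they were made with Cell Ranger 7.1.0 on mm10, and Seurat 4.1.1 is named too. Barcodes under 300 genes or over 20% mitochondrial UMIs were dropped. Scrublet scored doublets, and a common score threshold of 0.267, set after seeing the scores because the automatic one called 0 and 1 cells in controls 2 and 3, removed 938. Leiden clustering (scanpy 1.11.5, resolution 1) gave 35 clusters, named from marker lists; 8 stayed unnamed (4281 cells). The rules for leaving clusters unnamed were set after seeing the data, and no macrophage class resulted. The members were 6 of the 3000 variable genes. UMIs were summed per mouse and class and tested with edgeR 4.0.16 (TMM, filterByExpr, quasi-likelihood F-test, Benjamini-Hochberg over all genes of a class), with DESeq2 1.42.0 beside it. Per-library CPM of single genes set against a fold change use the TMM-normalised library size. Mean levels by class, Stab2, and group and marker sums use the plain total. Genes were named by rule: 8 core members in endothelial-like cells, the 6 members of smallest p there and 3 in other classes, the extremes in level, and 2 genes per other list; members given with full values beyond it (such as Bag3, Stip1 and Dnajb4 in endothelial-like cells) were chosen after seeing values. The members and lists were chosen with earlier results of these data known. The edgeR and DESeq2 p-values set the group difference against the spread between 3 mice per group, estimated partly from other genes. The tests between classes held mouse as a block, so the spread there is that of class differences within mice. The tests were tried on simulated data. Same-numbered mice deviated together (every correlation over 0.1, from 0.166 to 0.598) in 1 of 10 classes, B-like cells. Control 2 and knockout 2 also did in T-like (0.608), stellate/fibroblast-like (0.577), endothelial-like (0.535), plasma-like (0.412) and NK/ILC1-like cells (0.407). Numbers 1 and 3 ran from -0.437 to 0.205 in those classes, and number 2 was at -0.129 in mesothelial-like cells. The alternatives were other size factors, filters, doublets, mitochondrial limits, resolutions and left-out libraries.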

Additional observations from a re-analysis of the deposited data

How the results depend on the processing

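No member was called in any of the 10 classes by edgeR as set up. In endothelial-like, T-like, NK/ILC1-like, B-like, cDC1-like and neutrophil-like cells the count changed with the tool, the filter or the replicate block. In mesothelial-like cells it changed only with a library left out. DESeq2 called 1 member in endothelial-like, T-like, B-like and cDC1-like cells each and 4 in NK/ILC1-like cells. Without a filter on low counts edgeR called 4 members in B-like, 3 in cDC1-like, 4 in neutrophil-like and 5 in NK/ILC1-like cells. The same fits called 0.456%, 0.404%, 0.193% and 0.326% of all genes in these classes. With the replicate number as a block it called 4 members in B-like, 3 in neutrophil-like and 4 in NK/ILC1-like cells, beside 0.426%, 0.255% and 0.164% of all genes. Outside B-like cells not every number had a correlation over 0.1, though number 2 often did. The cause was not tested, and the block changed no other call. Leaving out 1 library at a time gave 0 to 4 members in mesothelial-like cells and 0 to 1 in neutrophil-like cells, in both cases without control 1 (0.632% and 0.105% of all genes), and 0 elsewhere and in both tests of a difference between classes. The number of classes whose inducible sums did not overlap was 6 to 9 without 1 library, an alternative added after seeing the data. Leaving out a library cannot make separate groups overlap, so this count could not fall below 6. The median log2 fold change turned in cholangiocyte-like cells on leaving out a library (range -0.086 to 0.041, positive in 4 of 6 cases) and in plasma-like cells (range -0.11 to 0.030, positive without control 3) or with the members left out of the clustering there (0.0012). All 602 refits of the 38 named member and class pairs kept their direction. Most of these pairs were picked for the smallest p in the main fit, and the refits reuse most of the same libraries. A kept direction is therefore no separate support. At matched depth, the knockout minus control share of cells with inducible HSP70 UMIs moved in endothelial-like cells from -3.96 to -6.93 percentage points at 1000 UMIs and -8.03 for at least 3 UMIs. For at least 3 UMIs it was -9.78 in mesothelial-like, -9.70 in NK/ILC1-like and -8.98 in T-like cells. With 1 library left out it ran from -5.63 to -2.96 in endothelial-like cells, but its sign turned in mesothelial-like (-5.16 to 1.75) and plasma-like cells (-5.28 to 0.781); in the other 7 classes it stayed negative.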
